A study of Mus musculus with 48 samples.

Results

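The comparison of angiotensin II with vehicle in the brain hemisphere rests on 12 RNA-seq libraries, 6 from mice infused with angiotensin II and 6 from mice infused with saline vehicle. A gene entered the comparison when it reached 0.5 FPKM (fragments per kilobase of gene, scaled to sequencing depth) in at least 6 of these 12 libraries. This kept 15831 of the 54532 genes in the deposited table, whatever their role, and the whole study has 48 libraries. All mice were male wild-type C57Bl6. The hypertensive group received angiotensin II by osmotic minipump at 0.7 mg per kg per day for 2 weeks, and the vehicle group received saline by the same route for the same time. Both treatments were also given to mice that drank hydralazine (50 mg per kg), again with 6 hemisphere libraries each. These 12 further libraries entered the model as groups of their own. The infusion reaches the whole animal, so the hemisphere libraries carry any action on vessels, kidney and blood pressure as well as on brain cells. Whether the 6 libraries of a group come from 6 mice is not stated in the labels, so a p-value here reflects only the spread from library to library.

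Angiotensin II is the effector peptide of the renin-angiotensin system. It acts mainly through the type 1 receptor to constrict arteries, retain salt and raise blood pressure, and in the brain it reaches neurons of regions that lack a blood-brain barrier. Long hypertension is known for remodelling of the arterial wall, in which elastin and collagens are deposited, and for activation of endothelium, microglia and perivascular macrophages. Immediate early genes are a separate class, switched on within minutes when neurons fire or cells are stimulated.

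Reads in genes, recovered from FPKM and gene length, numbered 16.97 M to 20.45 M in angiotensin II libraries and 15.77 M to 20.65 M in vehicle libraries. Between 23165 and 24782 genes were above 0 in the angiotensin II libraries and between 23693 and 24938 in the vehicle libraries. Angiotensin II replicate 6 stood apart. Mitochondrial transcripts made up 2.77% of its reads, while its 5 companions had 5.84% to 6.66% and vehicle libraries 5.89% to 7.22%. It was the highest or lowest of its group for 79.5% of tested genes. Vehicle replicate 1 was so for 59.8% of genes in its own group. Summed hemoglobin values were 211 FPKM in angiotensin II replicate 6 and 63.4 to 90.4 FPKM in the other angiotensin II libraries. Among vehicle libraries the range was 55.5 to 152 FPKM, with the highest value in replicate 1. Both libraries also deviated with gene length. Calls and list medians are therefore also given without angiotensin II replicate 6. Marker genes of the labelled tissue were present throughout. The neuronal gene Snap25 had 233 to 308 FPKM in angiotensin II libraries and 289 to 316 FPKM in vehicle libraries. The myelin gene Mbp had 497 to 635 FPKM in angiotensin II libraries and 476 to 598 FPKM in vehicle libraries.

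Few genes separated the groups. With limma and a Benjamini-Hochberg adjusted p under 0.05, 12 of 15831 genes (0.0758%) passed, 3 of them higher (0.0190%) and 9 lower (0.0569%) under angiotensin II. The 3 that rose were Neat1, a nuclear long noncoding RNA, Eln, which encodes elastin, and Podxl, the gene for an endothelial sialomucin. The 9 that fell were the immediate early genes Dusp1, Arc, Junb, Btg2 and Nr4a1, the histone demethylase gene Kdm6b, the beta-1 adrenergic receptor gene Adrb1, the deubiquitinase gene Otud1 and Msantd1. Without angiotensin II replicate 6, 11 genes passed (0.0695%), 3 higher and 8 lower. These held 9 of the 12, without Junb, Btg2 and Nr4a1, and added Cxcr4 and Pnrc1. Before adjustment, 1483 genes (9.37%) had a p under 0.05, of which 54.1% were higher. Without angiotensin II replicate 6 there were 1172 (7.40%), of which 49.0% were higher. Both counts take their spread from all hemisphere libraries in the fit, those with hydralazine included. A limma fit of the 12 compared libraries alone gave 828 genes at an unadjusted p under 0.05 and 2 calls, both lower. Most differences were small. The log2 fold changes had a median of 0.00, a lower 5% point of -0.26 and an upper one of 0.25, and 1.78% of genes were more than 0.5 from 0. The number of calls rested on single libraries. It dropped to 0 when angiotensin II replicate 4 was left out (limma; 1730 genes at an unadjusted p under 0.05), and likewise for vehicle replicate 5 (1028 genes) and vehicle replicate 6 (1083 genes). It was 3 on omitting vehicle replicate 2. On omitting angiotensin II replicate 5 it was 6, as it was for vehicle replicate 4. Omitting vehicle replicate 3 raised it to 20. Dropping both libraries that stood apart, angiotensin II replicate 6 and vehicle replicate 1, a choice made after the data were seen, also gave 0 calls with limma, with 1500 genes at an unadjusted p under 0.05 and a smallest adjusted p of 0.0547.

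**Figure D1:**
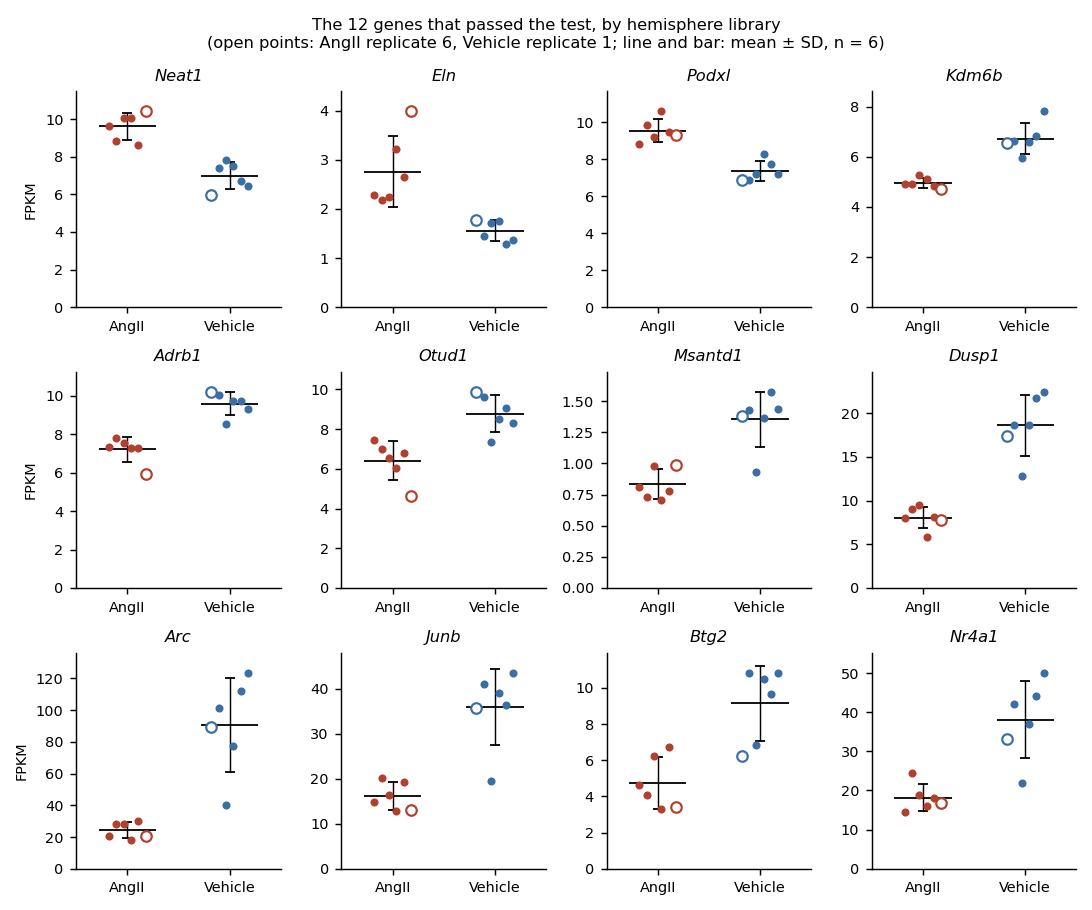
FPKM of the 12 genes in each hemisphere library, with angiotensin II (AngII, red) left of vehicle (blue), the mean and SD of 6 libraries as a line and bar, and every axis starting at 0. Neat1, Eln and Podxl lie above all vehicle libraries and Kdm6b, Adrb1, Dusp1 and Arc below them, while single libraries overlap in the other 5 genes.

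Both protein-coding genes that rose are known from the vessel wall. Eln (ENSMUSG00000029675, GRCm38 chromosome 5, 134702593 to 134747323, minus strand) encodes the elastin that gives arteries their recoil. It had a lowest, median and highest value of 2.19, 2.46 and 3.99 FPKM in angiotensin II libraries, against 1.28, 1.58 and 1.78 FPKM in vehicle libraries. The groups did not overlap, and the highest value came from angiotensin II replicate 6. The log2 fold change was 0.64 ± 0.11 (SE, limma adjusted p = 0.0236), and 0.54 ± 0.10 without that library (limma adjusted p = 0.0423). Podxl (ENSMUSG00000025608, chromosome 6, 31519488 to 31563981, minus strand) codes for podocalyxin, which lines the luminal face of endothelial cells. It had 8.86, 9.39 and 10.6 FPKM in angiotensin II libraries and 6.89, 7.22 and 8.29 FPKM in vehicle libraries, again without overlap. Its log2 fold change was 0.35 ± 0.07 (limma adjusted p = 0.0308), and angiotensin II replicate 6, at 9.32 FPKM, lay inside the range of its group. In bulk tissue, more cells of a type and more RNA per cell cannot be told apart. An antisense gene, Gm30003, overlaps Eln over 282 bases, and the strand setting of the authors' counting is not given in the sources used here.

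Other components of elastic fibres did not pass. Since 0.0758% of all tested genes were called, 0 calls in this or any later list says little about that list. Of the 21 listed genes, 17 were tested, 14 had a higher value and 3 a lower one, and only Eln was called. The list median was 0.16, and 0.07 without angiotensin II replicate 6, against a median of 0 over all genes tested, of which 50.0% were higher. Mfap4, a microfibril-associated glycoprotein, had a log2 fold change of 0.36 ± 0.12 (limma adjusted p = 0.416). Loxl1, a lysyl oxidase that crosslinks elastin, had 0.38 ± 0.17 (limma adjusted p = 0.513) and 0.23 without replicate 6, whose 3.32 FPKM was the highest value of either group. Ltbp1, a fibrillin-binding carrier of latent TGF-beta, had 0.51 to 0.65 FPKM in angiotensin II libraries and 0.36 to 0.50 FPKM in vehicle libraries. It was not called either (limma adjusted p = 0.530). Ltbp1 met the minimum of 0.5 FPKM through its angiotensin II libraries, so the lack of overlap between its groups says little. Among collagen and basement membrane genes, 23 of 26 had higher values (median 0.09, and 0.07 without replicate 6), and 0 were called. The small proteoglycan gene Bgn (0.33 ± 0.11, limma adjusted p = 0.406) and the fibronectin gene Fn1 (0.33 ± 0.13, limma adjusted p = 0.486) had the smallest p.

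Endothelial genes had no common direction. The 27 tested genes of endothelial surface and identity, Podxl among them, held 15 with higher and 12 with lower values (median 0.05, and 0.04 without replicate 6). Of the 27, 8 had an unadjusted p under 0.05 with all libraries and 7 without replicate 6, against 9.37% and 7.40% of all genes. The Ly6 family genes Ly6a and Ly6c1, which code for surface proteins of brain endothelium, had log2 fold changes of 0.52 ± 0.13 (limma adjusted p = 0.186) and 0.37 ± 0.10 (limma adjusted p = 0.292), and their near-identical relatives make read assignment uncertain. Kdr, the main receptor for VEGF, lay in the other direction, with 1.02 to 1.47 FPKM in angiotensin II libraries, 1.45 to 2.04 FPKM in vehicle libraries and a log2 fold change of -0.29 ± 0.09 (limma adjusted p = 0.342). Of 17 blood-brain barrier genes, 10 contractile genes of smooth muscle, 12 pericyte genes and 18 genes of vasoactive signalling, 0 were called, with list medians of -0.02, 0.00, 0.09 and -0.04. Without replicate 6 these medians were -0.01, 0.04, 0.04 and 0.01, and vasoactive genes had 10 of 18 higher values, against 8 with it. The endothelial tight junction gene Cldn5 averaged 47.1 ± 12.9 FPKM with angiotensin II and 44.8 ± 8.92 FPKM with vehicle (SD, n = 6 each; limma adjusted p = 0.885).

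The renin-angiotensin system itself had 10 of 15 genes tested, 7 with higher values, 3 with lower values and 0 called (median 0.08, and 0.02 without replicate 6). The receptor genes Agtr1a, Agtr1b and Agtr2 and the renin gene Ren1 did not reach the FPKM minimum. Agt, the precursor of angiotensin peptides, averaged 49.9 ± 13.1 FPKM with angiotensin II and 46.5 ± 8.09 FPKM with vehicle (SD, n = 6 each; limma adjusted p = 0.831). Ace, the enzyme that forms angiotensin II, averaged 5.41 ± 1.14 FPKM with angiotensin II and 5.18 ± 0.781 FPKM with vehicle (SD, n = 6 each; limma adjusted p = 0.887). Mas1, which encodes a receptor for the peptide angiotensin 1-7, had the smallest p of the list, at 4.93 to 6.30 FPKM with angiotensin II and 4.29 to 5.197 FPKM with vehicle (log2 fold change 0.17 ± 0.07, limma adjusted p = 0.503).

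Adrenergic receptors bind noradrenaline and adrenaline. Adrb1 (ENSMUSG00000035283, chromosome 19, 56722372 to 56724862, plus strand) had 5.95, 7.33 and 7.78 FPKM as lowest, median and highest value in angiotensin II libraries. Vehicle libraries had 8.52, 9.74 and 10.2 FPKM. All angiotensin II libraries lay below all vehicle libraries, and the lowest was replicate 6. The log2 fold change was -0.39 ± 0.07 (limma adjusted p = 0.0308), and -0.34 ± 0.06 without replicate 6 (limma adjusted p = 0.0423). Of the 5 other receptors tested, 2 had higher and 3 lower values and 0 were called.

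The long noncoding RNA Neat1 is the scaffold of paraspeckles, nuclear bodies that retain RNA and proteins. This gene (ENSMUSG00000092274, chromosome 19, 5824708 to 5845478, minus strand) had 8.64, 9.83 and 10.4 FPKM in angiotensin II libraries, against 5.99, 7.05 and 7.85 FPKM in vehicle libraries. The groups were apart in every library, and angiotensin II replicate 6 was the highest and vehicle replicate 1 the lowest of the 12. The log2 fold change was 0.44 ± 0.07 (limma adjusted p = 0.0166) and 0.41 ± 0.07 without replicate 6 (limma adjusted p = 0.0423). Other abundant nuclear RNAs did not pass. The 8 tested, Neat1 included, had a median of 0.05, and 0.11 without replicate 6. Miat had 0.15 ± 0.07 (limma adjusted p = 0.514), and Malat1, an RNA of nuclear speckles, had 0.08 ± 0.28 (limma adjusted p = 0.923). Malat1 had 26.2 FPKM in angiotensin II replicate 6, against 63.1 to 73.8 FPKM in its 5 companions and 27.6 to 80.5 FPKM in vehicle libraries.

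Kdm6b (ENSMUSG00000018476, chromosome 11, 69398508 to 69413675, minus strand) encodes the demethylase that removes the repressive methyl marks from lysine 27 of histone H3 and is itself induced by stimuli. It had 4.72, 4.93 and 5.27 FPKM in angiotensin II libraries and 5.95, 6.59 and 7.82 FPKM in vehicle libraries. No library overlapped, and the angiotensin II libraries lay close together. The log2 fold change was -0.40 ± 0.07 (limma adjusted p = 0.0166), and -0.39 ± 0.07 without replicate 6 (limma adjusted p = 0.0423). Of 19 histone demethylases tested, Kdm6b alone was called. The other 18 had 4 higher and 14 lower values with all libraries, and the list median was -0.11, and -0.01 without replicate 6. Otud1 (ENSMUSG00000043415, chromosome 2, 19657752 to 19660583, plus strand), a deubiquitinase gene, had 4.65, 6.65 and 7.44 FPKM with angiotensin II and 7.33, 8.78 and 9.87 FPKM with vehicle, with 1 library on each side in the overlap. Its log2 fold change was -0.43 ± 0.09 (limma adjusted p = 0.0429) and -0.35 ± 0.07 without replicate 6, which had its lowest value. Msantd1 (ENSMUSG00000051246, chromosome 5, 34908012 to 34923839, plus strand) had 0.71, 0.80 and 0.99 FPKM with angiotensin II, against 0.93, 1.41 and 1.58 FPKM with vehicle (-0.47 ± 0.09, limma adjusted p = 0.0429). Vehicle replicate 3 was its lowest vehicle library. Msantd1 overlaps Htt on the same strand over 4523 bases, so its reads are uncertain. Kdm6b shares 1188 bases with its antisense transcript Kdm6bos.

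Immediate early genes made up 5 of the 9 that fell. Arc, which regulates synaptic glutamate receptors, had 17.998, 24.5 and 29.8 FPKM in angiotensin II libraries and 40.1, 95.4 and 124 FPKM in vehicle libraries. Dusp1, a phosphatase that turns off MAP kinases, had 5.88, 8.05 and 9.53 FPKM, under angiotensin II, against 12.8, 18.6 and 22.4 FPKM with vehicle. In both genes the groups were apart. Of 33 listed and tested genes of this class, 29 had lower and 4 higher values, and 24 had an unadjusted p under 0.05, against 9.37% of all genes. The list median was -0.50, and -0.36 without replicate 6. Values near 0 were also found in this list. Homer1, Maff, Ptgs2, Egr3, Bdnf and Jund had log2 fold changes between -0.08 and 0.05, and the secreted pentraxin gene Nptx2 had 0.30 ± 0.11 (limma adjusted p = 0.449). Vehicle replicate 3 had the lowest value of its group for Arc, Dusp1, Junb and Nr4a1. Junb there was 19.6 FPKM, against 35.7 to 43.6 FPKM in the other vehicle libraries and 12.8 to 20.2 FPKM in angiotensin II libraries. Without that library 17 genes were called lower, against 9 with it. Junb overlaps Prdx2, on the opposite strand, over 351 bases.

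Promoters of 7 of the 9 genes that fell were matched by symbol in RefSeq (GRCm38.p6), each from 250 bases before to 50 bases after a start. Kdm6b, Arc and the 3 genes that rose had no match there, so the genes that rose could not be compared. The cyclic AMP response element TGACGTCA, through which the activity-dependent factor CREB acts, and its core TGACG were searched on both strands, and a full element also counts as the core. The full element was in 2 of the 7, Dusp1 and Btg2, against 1.79% of all 32851 promoters in the table, and the core in 6 of the 7, against 20.8%. The 6 windows with the core had a GC content of 65.3% to 72.3%, and the window of Msantd1, without it, 47.7%. Promoters of like GC content were not compared. The AP-1 motif TGANTCA (7.81% of all promoters) and the serum response factor motif, the CArG box (1.63%), were in 0 of the 7. Nr4a1 held 4 copies of the core. The RefSeq start inside the Nr4a1 window lies 12577 bases from the gene start in the deposited table, and that of Msantd1, which held no copy, 7903 bases. The promoters of 3 genes are shown because they hold the full element or the most copies of the core, and capitals mark the full element or its core on either strand.
Dusp1, chr17:26508423-26508722, minus strand: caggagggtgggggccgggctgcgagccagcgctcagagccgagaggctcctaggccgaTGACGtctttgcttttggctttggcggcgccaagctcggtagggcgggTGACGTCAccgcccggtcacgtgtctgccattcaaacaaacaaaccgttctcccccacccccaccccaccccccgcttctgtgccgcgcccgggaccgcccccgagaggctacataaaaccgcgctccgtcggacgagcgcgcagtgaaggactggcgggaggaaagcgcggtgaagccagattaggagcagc
Btg2, chr1:134079106-134079405, minus strand: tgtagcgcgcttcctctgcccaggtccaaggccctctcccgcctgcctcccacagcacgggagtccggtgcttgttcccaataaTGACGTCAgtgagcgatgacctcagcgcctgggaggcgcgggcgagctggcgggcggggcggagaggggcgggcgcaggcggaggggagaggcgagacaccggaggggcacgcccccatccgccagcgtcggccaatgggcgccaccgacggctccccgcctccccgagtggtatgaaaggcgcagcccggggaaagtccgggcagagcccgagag
Nr4a1, chr15:101266596-101266895, plus strand: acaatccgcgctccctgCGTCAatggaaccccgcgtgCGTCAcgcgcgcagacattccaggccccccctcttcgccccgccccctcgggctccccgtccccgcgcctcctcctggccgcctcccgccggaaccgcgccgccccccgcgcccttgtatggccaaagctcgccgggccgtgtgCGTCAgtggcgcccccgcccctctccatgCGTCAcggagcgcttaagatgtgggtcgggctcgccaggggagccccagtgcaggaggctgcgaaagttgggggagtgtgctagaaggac

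Nearest to the threshold without passing it lay the 10 protein-coding genes in each direction with the smallest p, outside the list of immediate early genes. Higher values were found for Slc25a34, Snrnp35, Msln, Jrk, Pglyrp1, Mgp, Lsm7, Ly6a, Flt3l and Rcc1l, with log2 fold changes of 0.31 to 0.62. Mgp, matrix Gla protein, which keeps arterial walls from calcifying, had 23.3, 26.3 and 42.8 FPKM with angiotensin II and 14.1, 19.3 and 21.8 FPKM with vehicle. Its groups did not overlap, its log2 fold change was 0.62 ± 0.15 (limma adjusted p = 0.172), and it was 0.50 without replicate 6. Flt3l, a growth factor for dendritic cells, had 1.48, 1.62 and 1.84 FPKM with angiotensin II, against 1.002, 1.24 and 1.29 FPKM with vehicle (0.31 ± 0.08, limma adjusted p = 0.186), also without overlap. Pglyrp1, a peptidoglycan recognition protein of neutrophils, had 0.48 ± 0.11 (limma adjusted p = 0.172). Lower values were found for Pnrc1, Cxcr4, Setd1b, Cyr61, Insm1, Depdc7, Irf2bpl, Siah2, Taok3 and N4bp1, between -1.09 and -0.21. Cyr61, a matricellular protein induced by serum and stretch, was absent from that list, although it too responds to stimuli. Its values were 1.23, 1.69 and 2.57 FPKM with angiotensin II and 2.54, 4.60 and 6.72 FPKM with vehicle (-1.09 ± 0.24, limma adjusted p = 0.134). Cxcr4, the receptor of the chemokine CXCL12, had 0.52, 0.56 and 0.82 FPKM with angiotensin II, against 0.76, 1.05 and 1.31 FPKM with vehicle. Its log2 fold change was -0.49 ± 0.10 (limma adjusted p = 0.0684), and -0.53 without replicate 6, where it passed (limma adjusted p = 0.0423). Setd1b, a histone H3 lysine 4 methyltransferase gene, had no overlap between groups, with 2.58 to 3.28 FPKM with angiotensin II and 3.42 to 4.03 FPKM with vehicle (limma adjusted p = 0.0710). Across all tested genes, groups without overlap were found for 40 higher (0.253%) and 51 lower genes (0.322%).

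Genes of antigen presentation had the highest list median of the 44 lists. MHC class II molecules, which present peptides to helper T cells, had 11 genes listed and 6 tested. Their median was 0.57, and all 6 had higher values and an unadjusted p under 0.05 with and without angiotensin II replicate 6, against 9.37% and 7.40% of all genes. None was called in either fit. H2-Eb1, a class II beta chain, had 3.09 to 4.69 FPKM in 5 angiotensin II libraries and 13.5 FPKM in replicate 6, against 2.18 to 3.04 FPKM in vehicle libraries. Its groups did not overlap (log2 fold change 0.71 ± 0.22, limma adjusted p = 0.362, and 0.42 without replicate 6). Cd74, the invariant chain that guides class II molecules, had 5.15 to 7.65 FPKM in those 5 libraries and 18.7 FPKM in replicate 6, against 3.53 to 5.67 FPKM with vehicle. The list mean on the log2 scale was 2.92 in angiotensin II replicate 6, between 1.78 and 2.04 in the other 5, and between 1.45 and 1.79 in vehicle libraries, and the list median was 0.37 without replicate 6. Hemoglobin was also highest in replicate 6 (above), and its part in these values was not tested. MHC class I genes, 13 of 14 higher, had a median of 0.20, and 0.09 without replicate 6, with 0 called. Class I and II genes include near-identical members whose reads are uncertain.

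In the other immune groups 0 genes were called, against 0.0758% of all tested genes. Complement genes (11 tested, 7 higher) had a median of 0.11, and 0.09 without replicate 6, with C4b, a component that reactive glia make, at 5.83 to 8.01 FPKM in 5 angiotensin II libraries, 11.4 FPKM in replicate 6 and 4.52 to 6.05 FPKM with vehicle (0.42 ± 0.12, limma adjusted p = 0.292). Interferon response genes (22 tested, 15 higher) had a median of 0.08, and 0.04 without replicate 6, and Isg15, a ubiquitin-like interferon target, had 0.55 ± 0.16 (limma adjusted p = 0.335). Border macrophages reside along vessels and meninges. The 6 of 13 marker genes tested had a median of 0.23 with 4 higher, and of 0.14 with 6 of 6 higher without replicate 6. Among them Mrc1 met the FPKM minimum mainly through angiotensin II libraries (0.54 to 0.69 FPKM without replicate 6, vehicle median 0.36 FPKM). For such a gene the filter favours a higher value, so these counts say little. Microglia genes (16 tested, 11 higher) had a median of 0.07, and of 0.03 with 9 higher without replicate 6. Among them Aif1, a marker of microglia and macrophages, averaged 3.86 ± 0.709 FPKM with angiotensin II and 2.83 ± 0.670 FPKM with vehicle (SD, n = 6 each; 0.40 ± 0.12, limma adjusted p = 0.342). The microglial receptor gene P2ry12 had -0.39 ± 0.16 with all libraries and -0.16 without replicate 6, where it was 2.75 FPKM. Genes of microglial activation had a median of -0.01 over 14 tested, and -0.02 without replicate 6. The neutrophil genes S100a8 and S100a9 varied widely in both groups, S100a9 being at 2.14 to 7.91 FPKM with angiotensin II and 2.36 to 9.75 FPKM with vehicle. Replicate 6 had the 2.14 FPKM, and the other 5 angiotensin II libraries had 5.06 to 7.91 FPKM, against a vehicle median of 3.06 FPKM. The log2 fold change of S100a9 was 0.65 ± 0.40 (limma adjusted p = 0.573), and 0.91 ± 0.39 without replicate 6 (limma adjusted p = 0.602). Lymphocyte and neutrophil genes (8 tested, 7 higher) had a median of 0.18, and of 0.05 with 4 higher without replicate 6.

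Reactive astrocyte genes had 12 of 15 higher values (median 0.09), and 10 of 15 without replicate 6 (median 0.12), with 0 called. Gfap, the intermediate filament of astrocytes, averaged 84.0 ± 15.2 FPKM with angiotensin II and 70.6 ± 5.51 FPKM with vehicle (SD, n = 6 each; 0.24 ± 0.10, limma adjusted p = 0.505). Genes of astrocyte identity (16 tested, 8 higher), myelin (19 tested, 9 higher) and oligodendrocyte precursors (12 tested, 6 higher) had medians between -0.04 and 0.03, and between -0.03 and 0.01 without replicate 6. Neuronal lists were close to the median of all genes too. Excitatory (16), inhibitory (17) and striatal (15) neuron genes had medians of -0.06, 0.03 and -0.01, and genes of synaptic release (20) and of postsynaptic receptors and scaffolds (27) had 0.03 and -0.02, with 0 called in each. Without replicate 6 these 5 medians lay between -0.01 and 0.01. Neurod2, a transcription factor of cortical excitatory neurons, was lower without overlap, at 22.8 to 27.7 FPKM with angiotensin II and 27.8 to 31.0 FPKM with vehicle (-0.20 ± 0.06, limma adjusted p = 0.291). In all, 6 of the 44 lists held a called gene, 24 had a median above 0 and 20 below.

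**Figure D2:**
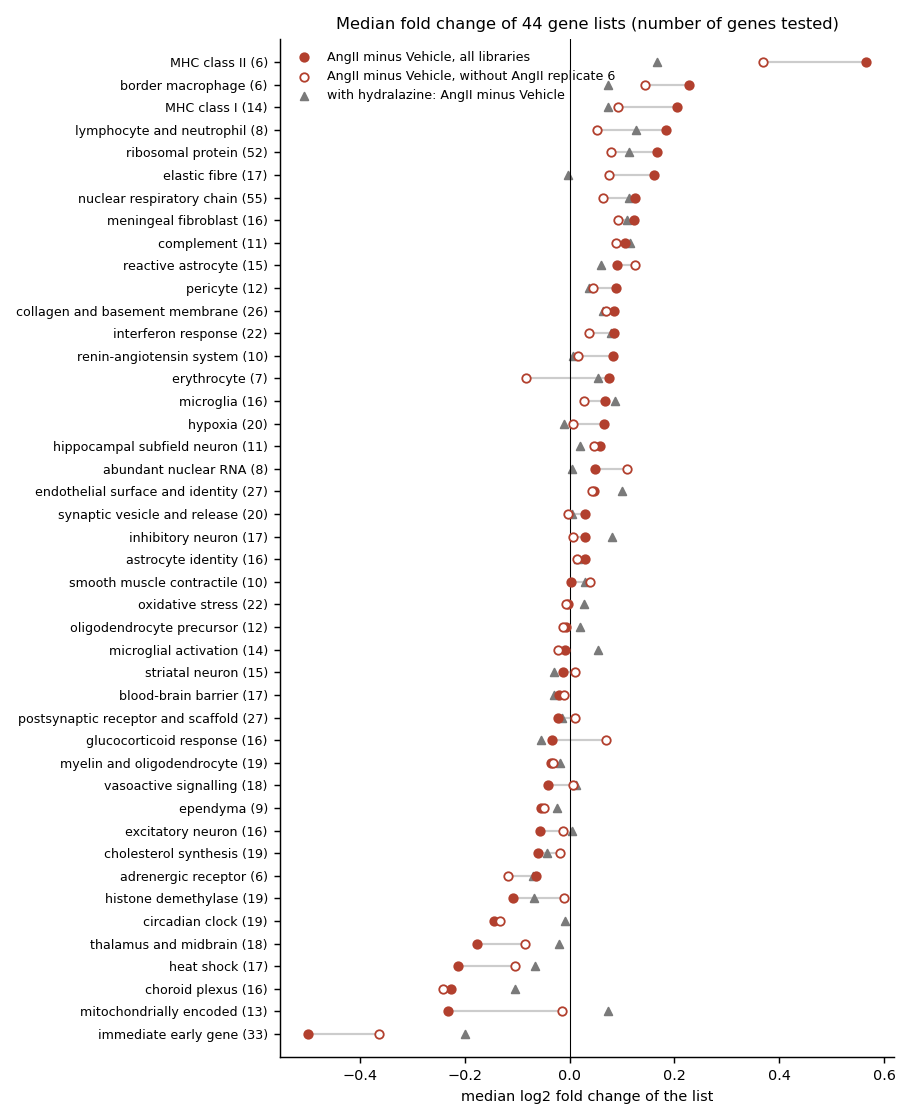
Median log2 fold change of each of 44 gene lists with the number of tested genes, for angiotensin II minus vehicle with all libraries (filled), without angiotensin II replicate 6 (open) and for the same drugs under hydralazine (triangles). MHC class II (0.57) and immediate early genes (-0.50) lie at the ends, with 0.37 and -0.36 without replicate 6.

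Some lists mark tissue that a dissection can include to a varying degree. Choroid plexus genes, expressed in the epithelium that secretes cerebrospinal fluid, had lower values in 15 of 16 tested members (median -0.23, and -0.24 without replicate 6), with 0 called. Their mean was 1.55 to 1.81 on the log2 scale in angiotensin II libraries and 1.72 to 2.31 in vehicle libraries, so that the groups overlapped. Ttr, the thyroid hormone carrier of this epithelium, averaged 494 ± 124 FPKM with angiotensin II and 633 ± 150 FPKM with vehicle (SD, n = 6 each; limma adjusted p = 0.532), and Otx2, its transcription factor, had 0.45 to 1.15 FPKM with angiotensin II and 1.22 to 1.94 FPKM with vehicle (limma adjusted p = 0.379). When this list mean was added to the model, 0 genes were called with limma (959 at an unadjusted p under 0.05, smallest adjusted p 0.0741). In that model all 12 genes kept their direction, with fold changes on the log2 scale of 0.889 to 1.05 times those without the covariate and adjusted p of 0.0741 to 0.194 (limma). Kdm6b had -0.38 ± 0.07 and Neat1 0.39 ± 0.07 there. Thalamus and midbrain genes had 11 of 18 lower values (median -0.18, and -0.09 without replicate 6). Meningeal fibroblast genes had 11 of 16 higher values (median 0.12, and 0.09 without it), and erythrocyte genes a median of 0.08, and -0.08 without it.

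Several lists of cell state had most members on 1 side of 0. Circadian clock genes had lower values in 18 of 19 members (median -0.15) and in 14 of 19 without replicate 6 (median -0.13), with 0 called. The repressor gene Bhlhe40 had 13.1, 17.6 and 19.1 FPKM with angiotensin II and 17.0, 22.2 and 25.6 FPKM with vehicle (-0.34 ± 0.10, limma adjusted p = 0.335). Per1, a clock gene that is also an immediate early gene, had -0.45 ± 0.15 (limma adjusted p = 0.416). The labels give no time of day for tissue collection. Heat shock genes had 16 of 17 lower values (median -0.21, and -0.10 without replicate 6), among them the inducible chaperone gene Hspa1b, at 2.75 to 4.71 FPKM with angiotensin II and 2.40 to 16.7 FPKM with vehicle. Nuclear respiratory chain genes (51 of 55 higher, median 0.13) and ribosomal protein genes (48 of 52 higher, median 0.17) had medians of 0.06 and 0.08 without replicate 6. Without it, 48 of 55 and 51 of 52 were still higher. In the comparison with hydralazine in both groups, 52 of 55 and 48 of 52 were higher. Mitochondrially encoded genes had 12 of 13 lower values (median -0.23) with replicate 6 and 8 of 13 (median -0.02) without it. In all of these lists 0 genes were called.

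**Figure D3:**
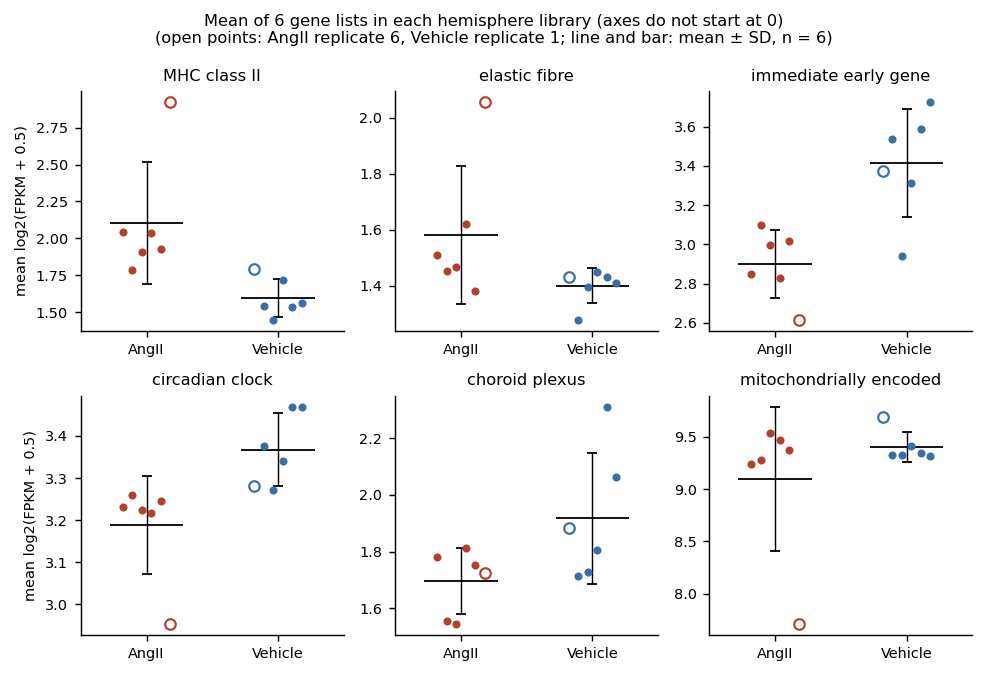
Mean log2(FPKM + 0.5) of 6 gene lists in each hemisphere library, angiotensin II (AngII) left of vehicle, with mean and SD of 6 libraries. Angiotensin II replicate 6 (open red) reaches 2.92 for MHC class II and 7.71 for mitochondrially encoded genes, apart from all other libraries, while the choroid plexus means of the groups overlap.

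The mice that also drank hydralazine, a vasodilator that lowers blood pressure, gave a second comparison of angiotensin II with vehicle that shares no library with the first. Of 15831 genes, 459 (2.90%) reached an unadjusted p under 0.05 there and 0 passed after limma's adjustment. Both comparisons took their spread from 1 fit of all 24 hemisphere libraries, angiotensin II replicate 6 among them. Their p-values are therefore not independent. Podxl averaged 9.64 ± 0.754 FPKM with angiotensin II plus hydralazine and 7.80 ± 0.780 FPKM with vehicle plus hydralazine (SD, n = 6 each). Its log2 fold change was 0.29 ± 0.07 (limma adjusted p = 0.702, unadjusted 0.000177). Eln averaged 2.61 ± 0.363 FPKM with angiotensin II plus hydralazine and 1.88 ± 0.248 FPKM with vehicle plus hydralazine, a log2 fold change of 0.38 ± 0.11 (limma adjusted p = 1.0, unadjusted 0.0026). Neat1 averaged 8.95 ± 0.932 FPKM with angiotensin II plus hydralazine and 7.91 ± 0.534 FPKM with vehicle plus hydralazine (0.16 ± 0.07, limma adjusted p = 1.0, unadjusted 0.0333). These were the 3 of the 12 genes with an unadjusted p under 0.05 there. The genes that fell were closer to 0 with hydralazine. Each had a lower mean in vehicle plus hydralazine than in vehicle, and a higher mean in angiotensin II plus hydralazine than in angiotensin II. Arc averaged 90.7 FPKM with vehicle, 53.8 FPKM with vehicle plus hydralazine, 24.3 FPKM with angiotensin II and 39.5 FPKM with both drugs. Hydralazine alone against vehicle was not tested here. Dusp1 averaged 11.7 ± 4.25 FPKM with angiotensin II plus hydralazine and 11.7 ± 3.50 FPKM with vehicle plus hydralazine, a log2 fold change of -0.01 ± 0.19. Kdm6b had -0.11 ± 0.07, Adrb1 -0.13 ± 0.07, Otud1 -0.13 ± 0.09, Msantd1 -0.03 ± 0.09, Arc -0.41 ± 0.31 and Btg2 0.21 ± 0.17. Junb had -0.35 ± 0.19 and Nr4a1 -0.31 ± 0.20.

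The difference between the comparisons was tested as an interaction. It gave 0 calls with limma, and 424 genes (2.68%) reached an unadjusted p under 0.05. All 12 genes had a smaller fold change with hydralazine, but they were chosen for their size without it. For 10 of them the unadjusted interaction p was under 0.05, from libraries that also chose the genes. Dusp1 had a difference of -1.14 ± 0.26 and Kdm6b of -0.29 ± 0.09. For Podxl the difference was 0.06 ± 0.09 (unadjusted p = 0.507) and for Eln 0.26 ± 0.16 (unadjusted p = 0.125). List medians with hydralazine were 0.17 for MHC class II, -0.20 for immediate early genes, -0.10 for choroid plexus, -0.01 for circadian clock, 0.00 for elastic fibre and 0.10 for endothelial genes, the last with 21 of 27 higher.

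**Figure D4:**
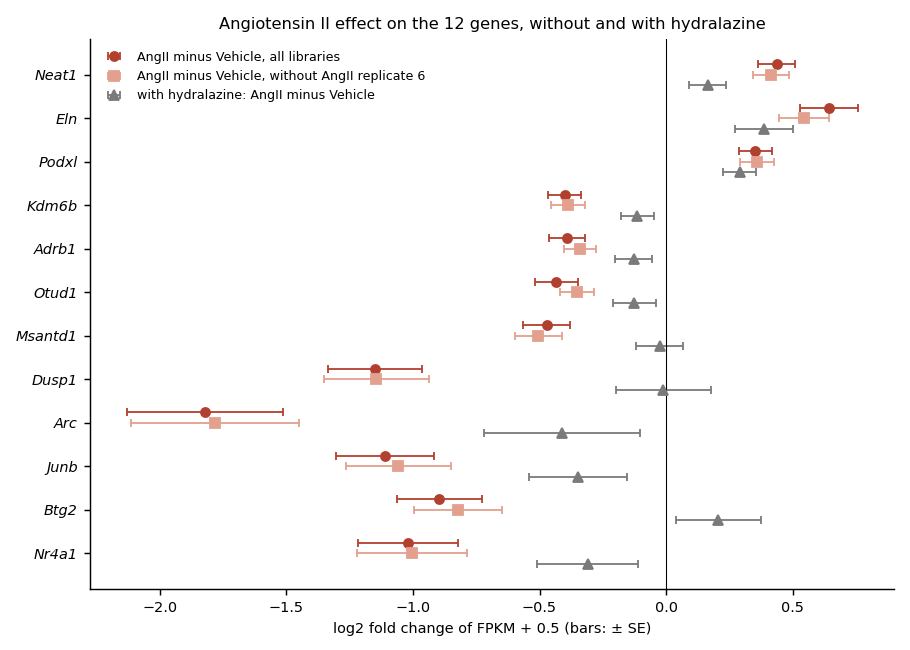
Log2 fold change with SE of the 12 genes for angiotensin II minus vehicle with all libraries (circles), without angiotensin II replicate 6 (squares) and with hydralazine in both groups (triangles). Podxl has 0.35 and 0.29 without and with hydralazine, and Dusp1 -1.15 and -0.01.

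Angiotensin II replicate 6 was also described on its own. Genes with the widest gap to the median of the other 5 libraries, given as a description, included the hemoglobin gene Hba-a1 at 92.4 FPKM in replicate 6, against 25.3 to 36.2 FPKM in the others, and the neuropeptide gene Avp at 69.1 FPKM, against 21.5 to 34.3 FPKM. On the low side were mt-Nd6 at 251 FPKM, against 2856 to 3713 FPKM, and the RNA-binding protein gene Elavl2, with a length of 8313 bases, at 1.08 FPKM, against 5.73 to 6.77 FPKM. Its deviation followed gene length. The median log2 difference from the vehicle mean was 0.17 in the shortest of 5 length classes, up to 1675 bases, and -0.33 in the longest, from 6949 bases. Vehicle replicate 1 ran the same way, with 0.15 and -0.12. The other 10 libraries lay between -0.05 and 0.09 in the shortest class and -0.03 and 0.06 in the longest. The median log2 fold change was 0.06 in the shortest class and -0.05 in the longest, and 0.04 and 0.01 without replicate 6. The 9 genes that fell had a median length of 2832 bases and the 3 that rose 8098 bases, against 3791 bases over all tested genes. With each library's trend on length removed 15 genes were called, 11 of them among the 12.

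**Figure D5:**
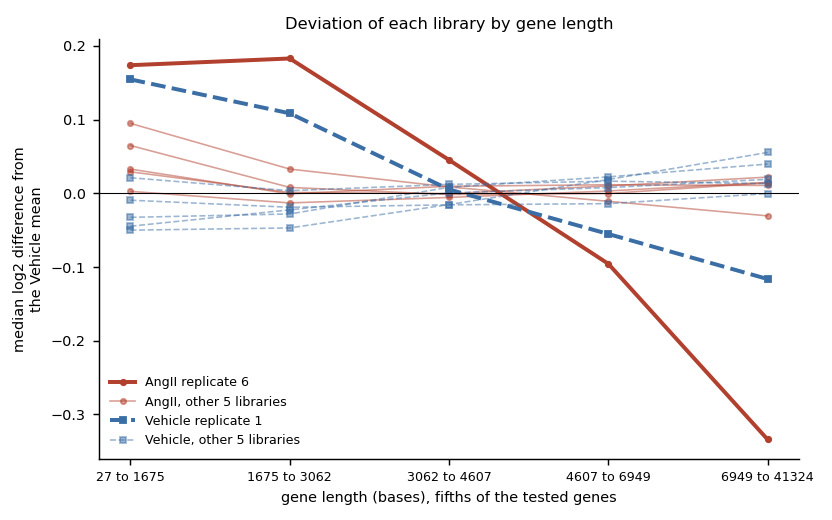
Median log2 difference of each library from the vehicle mean in 5 equal classes of tested genes by length, for angiotensin II (red, solid) and vehicle (blue, dashed) libraries. Angiotensin II replicate 6 falls to -0.33 and vehicle replicate 1 to -0.12 in the longest genes, while the other libraries lie between -0.03 and 0.06 there.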

How the data were processed

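RNA from mouse brain hemisphere was sequenced from total RNA libraries made by a company, as the labels' protocols state. For the whole series the authors deposited a table of FPKM for 54532 genes with gene lengths. The submitters' processing notes name DESeq 1.10.1 and the builds GRCm38 and mm10. Aligner, counter and strandedness: not given in the sources used here. FPKM are not counts, so log2(FPKM + 0.5) was tested with limma 3.58.1 in R 4.3.3, with a mean for each of 4 hemisphere groups (24 libraries), mean-variance trend and robust prior, a scale that understates changes of low genes. Genes were called, two-sided, at a Benjamini-Hochberg adjusted p under 0.05 over 15831 genes. Reads recovered from FPKM and length (100% of low values whole within 0.1 read) describe depth only, and the lowest chi-square per gene between libraries of a group was 3.08 over 30 pairs. Named genes were every called gene, the 10 uncalled in each direction with the smallest p and a mean of at least 1 FPKM, the 3 smallest p of each list as examples, 9 tested defining genes, and 10 genes in each direction for angiotensin II replicate 6. Further members named with their lists were chosen after their values were seen. The genes and the 44 lists (844 genes, 748 tested) were chosen with earlier results of these data known. The model was tested on simulated data. Python 3.11.15, pandas 2.3.3 and matplotlib 3.10.9 made tables and figures. Some withheld items are not reported here.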

Additional observations from a re-analysis of the deposited data

Results flagged for a closer look

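In 24 of 112 groups of 6 libraries examined, 1 library lay farther from the rest than Dixon's 95% critical value allows. Chance marks about 1 in 20 independent groups. The groups examined here share the same libraries, so 1 odd library can mark many of them and that rate is no yardstick. Of the 24, 14 were angiotensin II replicate 6. Among called genes, Adrb1 was at 5.95 FPKM in angiotensin II replicate 6 (others 7.29 to 7.78), Junb at 19.6 FPKM in vehicle replicate 3 (others 35.7 to 43.6) and Msantd1 at 0.93 FPKM in vehicle replicate 3 (others 1.37 to 1.58). The remaining values are list means on the log2 scale. In angiotensin II replicate 6 they were high for elastic fibre (2.06, others 1.38 to 1.62), MHC class II (2.92, others 1.78 to 2.04), MHC class I (2.78, others 2.07 to 2.31), synaptic vesicle (6.61, others 6.47 to 6.51) and erythrocyte genes (4.75, others 3.41 to 3.86). They were low there for myelin (5.16, others 5.31 to 5.39), oligodendrocyte precursor (2.95, others 3.09 to 3.17), thalamus and midbrain (2.04, others 2.24 to 2.36), postsynaptic (3.67, others 3.98 to 4.04), mitochondrially encoded (7.71, others 9.24 to 9.53), circadian clock (2.95, others 3.22 to 3.26), abundant nuclear RNA (4.48, others 4.78 to 4.88) and histone demethylase genes (1.88, others 2.13 to 2.204). Angiotensin II replicate 4 was high for microglia genes (3.06, others 2.89 to 2.94). Vehicle replicate 2 was low for elastic fibre (1.28, others 1.39 to 1.45) and ependyma genes (1.18, others 1.46 to 1.58). Vehicle replicate 1 was high for myelin (5.48, others 5.35 to 5.39), ribosomal protein (6.78, others 6.37 to 6.52) and mitochondrially encoded genes (9.69, others 9.31 to 9.41). It was low for abundant nuclear RNA (4.42, others 4.74 to 4.82) and histone demethylase genes (2.06, others 2.21 to 2.28). The part of these libraries in each result was not tested beyond the values given without them.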

How the results depend on the processing

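The number of genes called with limma was 12. It was 4 with no filter on low values, 44 with library weights, 2 in a fit of the 12 libraries alone and 0 once the mean of choroid plexus genes was a covariate. It was also 0 without angiotensin II replicate 6 and vehicle replicate 1 together, which was chosen after the data were seen. The cause of these shifts was not tested. Leaving out 1 library at a time gave 0 to 20 calls. Replicate numbers did not pair the libraries (same-number correlations of -0.20 to 0.11 over 6 pairs), and a fit with the replicate number as a block called 5 genes. Other pseudocounts, FPKM minima, scalings, prior settings and a length correction gave 11 to 15 calls. The 12 genes kept their direction in every alternative run in which they were tested (Msantd1 was not at a minimum of 1 FPKM). These runs reuse libraries that chose the genes, so the kept direction is no separate support. The test of the difference between the comparisons without and with hydralazine gave 0 calls throughout, with 326 to 1083 genes at an unadjusted p under 0.05. Of 1188 list medians recomputed under alternatives, 10 moved by more than the spread and 54 changed sign.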
